A study of Rattus norvegicus with 26 samples.

Results

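The genes of the respiratory chain and of ATP synthase were followed in rat spinal cord from the intact state through compression injury and stem cell transplantation. Members were set by name and a count minimum. The rule used no measured change, but it was chosen with earlier results of these data known. It took nuclear genes of complex I (Nduf), complex II (Sdh), complex III (Uqcr), complex IV (Cox4 to Cox8) and ATP synthase (Atp5). The protein genes of the mitochondrial genome (Mt-) were also taken. Each member had at least 10 counts in at least 3 libraries. Of 102 rows whose names matched, 96 met the count minimum, 83 nuclear and 13 Mt- genes. The table held 32883 rows, 17990 genes passed the expression filter for testing, and all 96 members were among them. The 6 rows below the minimum were Cox8c, Cox6c-ps1, Cox7a1, Cox7b2, a second Ndufa10l1 row and Ndufs6, which the table lists as a processed pseudogene. By complex, the nuclear members were 37 of complex I (7 core and 30 accessory subunits), 4 of complex II, 9 of complex III, 16 of complex IV and 17 of ATP synthase (complex V). Ndufa4 and Ndufa4l2 were placed with complex I by name, although the Ndufa4 protein is now assigned to complex IV. The symbols Ndufv3, Uqcrb and Cox6b1 each stand for a pair of gene IDs, and reads could be divided between near-identical copies.

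RNA sequencing covered 26 libraries of 5 mm spinal cord segments from adult female wild type Sprague-Dawley rats of 250 g. Their age is listed as postnatal day 70 in every group, although the groups were sampled at different times after injury. Whether it is the age at injury or at sampling is not given in the sources used here. The Intact group (4 libraries) held untreated rats, given by the study as intact or sham. All other rats had a clip of 60 g closed on the cord at T10 for 1 min. The sub-SCI group (3 libraries) was taken at day 7 after injury, the time of transplantation. The remaining rats received mesenchymal stem cells of human umbilical cord (hUC-MSCs, +MSC) or phosphate-buffered saline (+PBS) intrathecally at that day. They were sampled at 1, 2 or 4 weeks post-transplantation (wpt), with 3, 2 and 4 libraries of +PBS and 3, 3 and 4 of +MSC in that order (named +PBS-1w to +MSC-4w). The study's methods state daily cyclosporin A for the rats over the experiment, and the labels do not say how many rats made up a library. The groups ask how far the transcripts for oxidative phosphorylation changed with injury, and whether they differed between +MSC and +PBS cords.

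Complexes I, III and IV pump protons across the inner mitochondrial membrane while electrons pass from NADH or succinate to oxygen, complex II feeds electrons in from succinate, and ATP synthase uses the proton gradient to make ATP. Most subunits are encoded in the nucleus and imported, whereas a small core of complexes I, III, IV and V is encoded by mitochondrial DNA, transcribed as long polycistronic RNAs and translated inside the organelle. Neurons draw most of their ATP from this pathway, and firing, ion pumping and synaptic transmission depend on it.

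The promoters of nuclear respiratory genes are known for sites of the factors NRF1, GABP (an ETS factor, also named NRF2) and YY1. Of the 83 nuclear members, 72 could be matched to a RefSeq promoter of the rat build GRCr8 (71 by symbol and 1, Atp5md, by the synonym Atp5mk), which gave 70 distinct promoters. The window searched was the 250 bases before the start, on both strands. The NRF1 letters, which are the capitals of the Atp5mc2 promoter printed here and read the same on both strands, stood in 4 of 70 member promoters (5.71%) and in 0.762% of all 33469 RefSeq promoters. The ETS letters CCGGAAG stood in 19 (27.1%) against 7.27%, and the YY1 letters AAGATGGC in 2 (2.86%) against 1.63%. At least 1 of the motifs stood in 22 member promoters (31.4%) and in 9.3% of all. YY1 and ETS letters can overlap in 1 stretch. The promoters of the 5 nuclear members with the smallest adjusted p in sub-SCI against Intact, on which much of what follows turns, are printed with motif letters in capitals and the rest in lower case, 5′ to 3′ on the gene's strand. They lie in GRCr8 at chr9:72073606-72073855 (minus strand, Ndufs1, 1 ETS match), chr1:30764303-30764552 (plus strand, Sdha, no match), chr1:184598990-184599239 (plus strand, Uqcrc2, 2 ETS matches), chr7:135678219-135678468 (minus strand, Atp5mc2, 1 NRF1 match) and chr1:78122621-78122870 (plus strand, Cox6b2, no match).
Ndufs1: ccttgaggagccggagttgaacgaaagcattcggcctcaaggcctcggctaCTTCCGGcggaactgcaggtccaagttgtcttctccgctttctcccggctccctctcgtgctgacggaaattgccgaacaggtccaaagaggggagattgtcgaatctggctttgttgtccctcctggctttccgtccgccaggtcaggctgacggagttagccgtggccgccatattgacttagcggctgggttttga
Sdha: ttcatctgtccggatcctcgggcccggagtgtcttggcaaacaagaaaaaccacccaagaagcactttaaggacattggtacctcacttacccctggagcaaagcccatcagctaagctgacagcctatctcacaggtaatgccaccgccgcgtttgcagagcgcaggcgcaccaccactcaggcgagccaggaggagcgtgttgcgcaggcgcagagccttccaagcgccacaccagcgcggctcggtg
Uqcrc2: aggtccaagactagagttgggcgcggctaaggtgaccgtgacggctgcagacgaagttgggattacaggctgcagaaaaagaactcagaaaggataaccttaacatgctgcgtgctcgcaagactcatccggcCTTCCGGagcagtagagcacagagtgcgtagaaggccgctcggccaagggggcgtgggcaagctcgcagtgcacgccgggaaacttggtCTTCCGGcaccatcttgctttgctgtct
Atp5mc2: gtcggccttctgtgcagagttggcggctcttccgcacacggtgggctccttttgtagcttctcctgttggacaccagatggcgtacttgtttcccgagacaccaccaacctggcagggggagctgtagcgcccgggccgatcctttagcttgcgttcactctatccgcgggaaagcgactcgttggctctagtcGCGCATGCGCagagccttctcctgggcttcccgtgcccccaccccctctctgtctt
Cox6b2: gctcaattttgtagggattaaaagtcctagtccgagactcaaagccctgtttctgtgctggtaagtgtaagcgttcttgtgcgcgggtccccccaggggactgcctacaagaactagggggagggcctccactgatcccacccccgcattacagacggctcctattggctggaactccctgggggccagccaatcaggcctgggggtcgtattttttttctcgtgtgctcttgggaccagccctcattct
A match is a run of letters and not a known site.

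Between 19496602 and 43468509 counts per library were assigned to genes. The neuron marker list (12 genes) summed to 12177 to 14538 CPM (counts scaled to library size with TMM, as edgeR gives them) in Intact, 611 to 2770 in sub-SCI, 2171 to 7773 in +PBS-4w and 7474 to 9338 in +MSC-4w. All 12 neuron markers were lower in sub-SCI and in +PBS-4w than in Intact, and all 12 were higher in +MSC than in +PBS over the mean of the weeks. All 8 microglia and macrophage markers were higher in sub-SCI (292 to 494 CPM in Intact, 3579 to 4809 in sub-SCI), as were all 6 fibroblast markers, while 7 of 8 oligodendrocyte and 5 of 8 astrocyte markers were lower. Of the other lists, 1 of 4 endothelial markers tested was higher and 1 lower (Cldn5 was at 0 in every library), 3 of 7 pericyte and smooth muscle markers were higher and 1 lower, 1 of 5 Schwann cell markers was higher, 5 of 7 skeletal muscle and 1 of 2 adipocyte markers were lower, and 0 of 3 red blood cell markers passed. The skeletal muscle marker sum was far higher in Intact replicate 4 than in the other Intact libraries (values given with Cox8b). In cord tissue, fewer cells of a type and less RNA per cell cannot be told apart. The part of these cell markers in the results that follow was not tested.

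One library stood apart in these genes. In +PBS-4w replicate 1 the mean log2 CPM of the nuclear members was 6.56, against 5.54 to 5.63 in the other +PBS-4w libraries, 79 of 83 nuclear members were above the group mean, and the median deviation was 0.80. Its mean over the Mt- members was the lowest of its group by a small margin (10.16, against 10.18 in replicate 3). Its Mt- share of counts, 4.45%, lay within the 3.58 to 4.65% of the other +PBS-4w libraries. Its neuron marker sum was 7773 CPM, against 2171 to 3006 in the other +PBS-4w libraries. Replicate 1 had the highest nuclear mean in all 8 groups and the highest Mt- mean in 3. Since all libraries share 1 estimate of the spread, the counts of members called in each comparison are given with and without +PBS-4w replicate 1, a choice made after seeing the data. Other counts include the library unless stated.

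**Figure D1:**
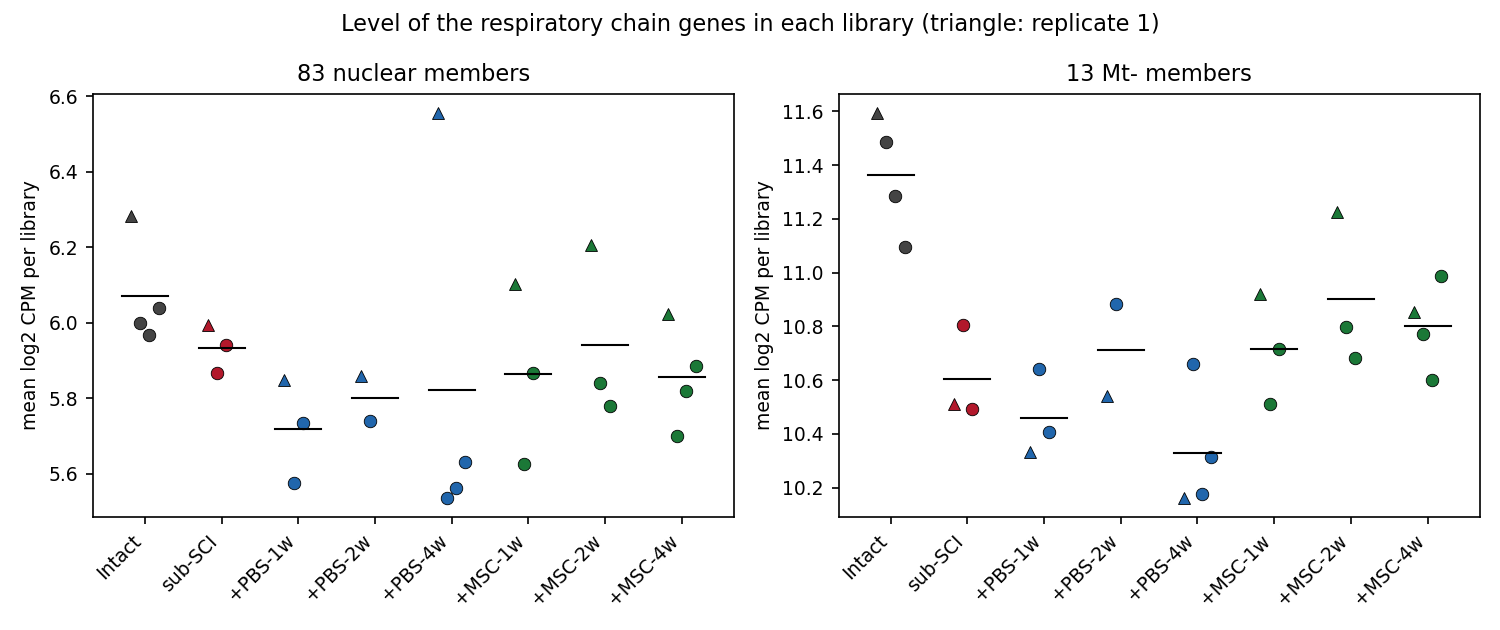
Mean log2 CPM of the 83 nuclear members (left) and the 13 Mt- members (right) in each of the 26 libraries by group, with a line at the group mean and a triangle for replicate 1; axes do not start at 0. Every injured library was below all 4 Intact libraries in the Mt- mean except +MSC-2w replicate 1. +PBS-4w replicate 1 was the highest of all libraries in the nuclear mean. It was the lowest in the Mt- mean by a small margin (10.16, against 10.18 in +PBS-4w replicate 3).

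Per length, 11 of the 13 mitochondrial transcripts ranked above every nuclear member. In Intact, on the RPKM scale (CPM divided by gene length in kilobases, group mean), Mt-co1 stood at 16243, Mt-co3 at 14005, Mt-atp6 at 12799 and Mt-co2 at 10957. The most abundant nuclear member was Atp5f1b, the catalytic beta subunit of ATP synthase, with 671 RPKM at rank 12 of 96, followed by Cox4i1 with 584 and Cox6a1 with 576. The lowest were Atp5pb with 1.49 RPKM and Ndufa1 with 1.57, named for their rank after values were seen, and the isoforms Cox8b with 1.95, Cox4i2 with 2.53, Cox6b2 with 2.76 and Ndufa4l2 with 2.85. Mt-nd4, at 320 RPKM, was far below its neighbours Mt-nd4l (2916) and Mt-nd5 (1840). How reads in stretches shared by overlapping genes (Mt-nd4 with Mt-nd4l, Mt-atp6 with Mt-atp8) were counted is not known. The strand setting is not given in the sources used here. Reads of Mt-nd6, which lies antisense, therefore could not be told apart from those of the opposite strand. The 13 Mt- members together took 6.57 to 8.44% of all counts in Intact and 4.55 to 5.42% in sub-SCI. At 1, 2 and 4 wpt the shares were 4.08 to 4.88%, 4.44 to 5.30% and 3.58 to 4.65% in +PBS. In +MSC they were 4.35 to 5.80%, 4.97 to 6.78% and 4.73 to 5.71%, which overlapped +PBS at 1 and 2 wpt. The libraries were made from RNA with poly(A) tails, so these shares are those of polyadenylated RNA.

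At day 7 after injury most nuclear members did not pass, while the mitochondrial ones moved one way. Compared with Intact, 18 nuclear members were lower and 5 higher in sub-SCI, and 60 did not pass (edgeR's quasi-likelihood test, adjusted p under 0.05 over 17990 genes). Of all genes tested, 30.9% were lower and 30.5% higher, and 6940 of 17990 did not pass, so nuclear members were called less often in both directions. Of the 13 Mt- members, 11 were lower and 0 higher. The median log2 fold change was -0.15 over the nuclear members, -0.78 over the Mt- members and -0.02 over all genes. The exceptions among the Mt- members were Mt-nd3 (-0.47, adjusted p = 0.12, edgeR) and Mt-nd4l (-0.94, adjusted p = 0.074, edgeR), both also negative. By the study's own threshold (absolute log2 fold change above 1 and adjusted p under 0.01, met by 34.1% of all genes), 4 members were differentially expressed, Ndufs1 and Sdha lower and Ndufa4l2 and Cox6b2 higher. The count of lower Mt- members was 12 without +PBS-4w replicate 1. That of lower nuclear members was 21 without +PBS-4w replicate 1 (background 31.9%, all 18 calls shared), 9 without Intact replicate 1, and 11 without Intact replicate 2 or sub-SCI replicate 3. That of higher ones was 9 without +PBS-4w replicate 1 (background 35%). The members past the study's threshold were 2 without Intact replicate 1 and 7 without Intact replicate 4.

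**Figure D2:**
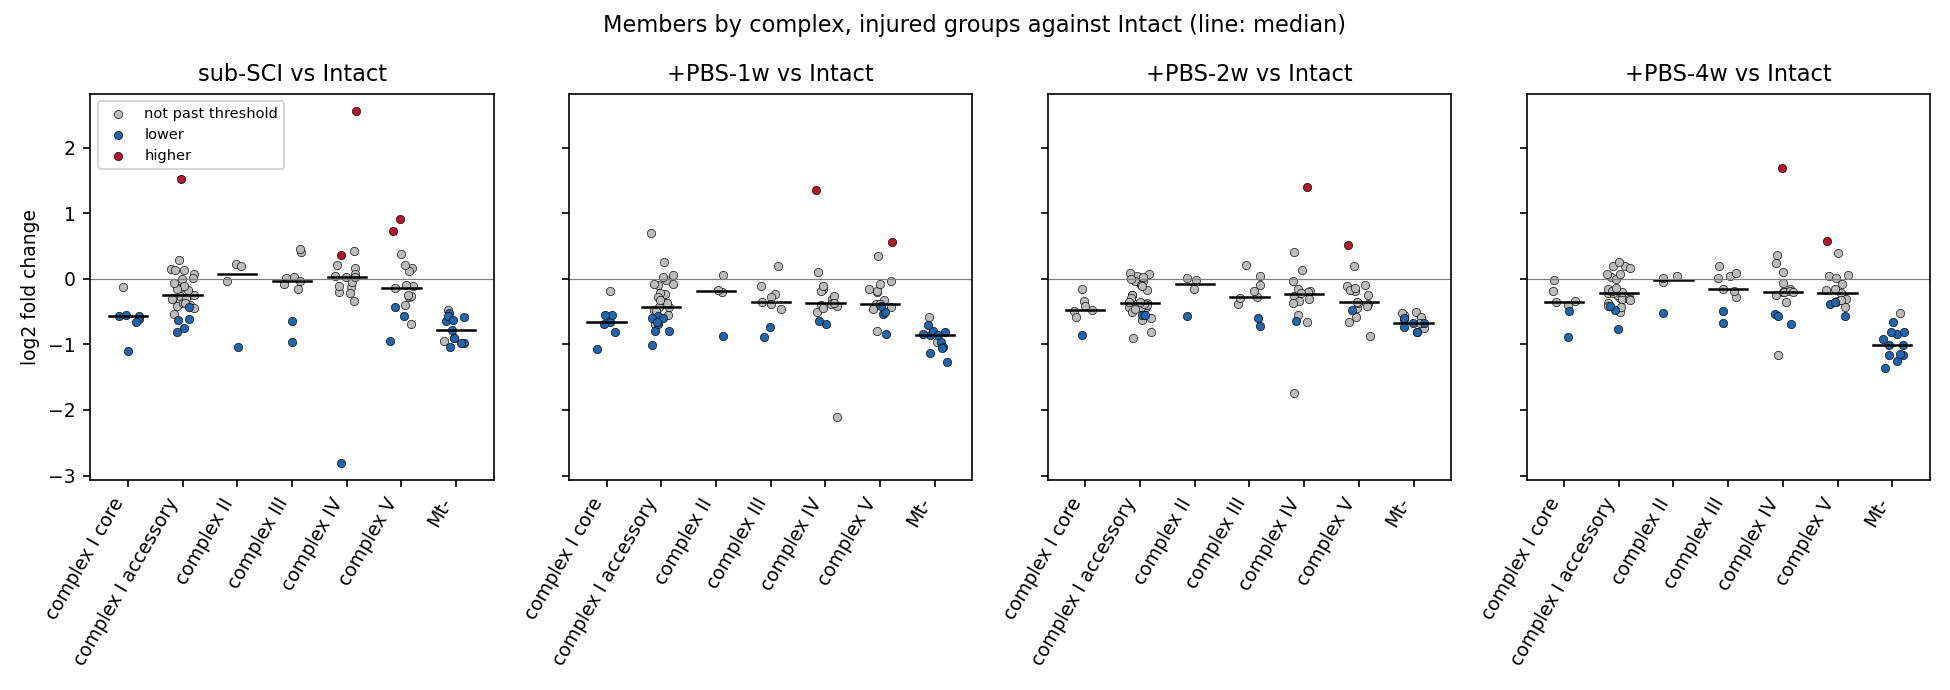
Log2 fold change against Intact of each member, grouped by complex, in sub-SCI and in +PBS at 1, 2 and 4 wpt, with blue points lower and red points higher at an adjusted p under 0.05 and a line at the median. The Mt- points lay below 0 in all 4 panels, and the complex I core points did too, while Cox6b2 was the highest point of each panel.

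Complex I, the NADH dehydrogenase, held 11 of the 18 nuclear members that were lower in sub-SCI, 11 of its 37 beside 30.9% of all genes. Of its 7 nuclear core subunits, which hold the flavin and iron-sulphur centres, 6 were lower in sub-SCI (median log2 fold change -0.57), and of its 30 accessory subunits 5 were lower and 1 higher (median -0.25). Without +PBS-4w replicate 1 the lower ones were 6 and 7 and the higher ones 0 and 3. Ndufs1, the largest iron-sulphur subunit, measured 264, 209, 224 and 208 CPM in the 4 Intact libraries. It measured 111, 106 and 98.8 CPM in sub-SCI. Every injured library was below every Intact library, and the sub-SCI libraries lay near each other. In the +PBS libraries it measured 111, 107 and 106 CPM at 1 wpt, 120 and 129 at 2 wpt, then 153, 107, 112 and 118 at 4 wpt. The log2 fold change of Ndufs1 against Intact was -1.10 (SE 0.14) in sub-SCI, -1.07 (SE 0.14) in +PBS-1w, -0.86 (SE 0.16) in +PBS-2w and -0.89 (SE 0.12) in +PBS-4w, all past the threshold (edgeR, adjusted p = 5e-07, 1.4e-06, 2.1e-04 and 4.8e-06).

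Other core subunits moved less. In sub-SCI the log2 fold changes were -0.66 for Ndufv2, -0.57 for Ndufs7, -0.56 for Ndufs3 and -0.55 for Ndufv1, each lower with an adjusted p between 0.0073 and 0.033 (edgeR). Ndufs8, another iron-sulphur subunit, stood at -0.12 (adjusted p = 0.57, edgeR). Among accessory subunits, Ndufs4, a subunit known from Leigh syndrome, fell by 0.61 on the log2 scale (SE 0.11, edgeR adjusted p = 7.9e-05), and Ndufa10l1 fell by 0.75 (SE 0.14, edgeR adjusted p = 1.3e-04). Both were also lower in all 3 +PBS groups. Ndufa8, a twin-cysteine subunit of the intermembrane space, measured 162, 132, 125 and 130 CPM in Intact and 85.5, 77.6 and 70.8 CPM in sub-SCI. In +PBS-4w it measured 164, 51.1, 54.3 and 54.4 CPM. Its groups did not overlap in sub-SCI (log2 fold change -0.82, edgeR adjusted p = 0.027), but at 4 wpt replicate 1 lay above every Intact library and the others below (-0.76, edgeR adjusted p = 0.028).

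Ndufa4l2, a hypoxia-inducible paralogue of Ndufa4, went the other way at day 7. It measured 3.27, 2.57, 2.82 and 2.09 CPM in Intact and 5.70, 4.71 and 12.7 CPM in sub-SCI, with no overlap (log2 fold change 1.52, SE 0.30, edgeR adjusted p = 1.6e-04). In +PBS-1w it measured 4.04, 3.39 and 5.60 CPM, and the difference from Intact was 0.70 (edgeR adjusted p = 0.058). At 2 and 4 wpt it stood at -0.03 and 0.25 (edgeR adjusted p = 0.95 and 0.48). Ndufa4 itself was lower in sub-SCI (-0.63, edgeR adjusted p = 0.035) and in +PBS-1w (-0.80, edgeR adjusted p = 0.011).

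Within complex II, succinate dehydrogenase, 1 of 4 subunits passed in any of the 4 comparisons with Intact. That was Sdha, the flavoprotein, with 383, 328, 350 and 323 CPM in Intact and 176, 165 and 160 CPM in sub-SCI. It then measured 206, 177 and 183 CPM in +PBS-1w, 232 and 233 CPM in +PBS-2w, and 281, 227, 225 and 227 CPM in +PBS-4w. All these libraries lay below the lowest Intact library, and those of sub-SCI were the lowest. The log2 fold changes were -1.05, -0.87, -0.57 and -0.53 in time order (SE 0.14, 0.14, 0.16 and 0.12, edgeR adjusted p = 1.1e-06, 1.8e-05, 0.0066 and 0.0012). The iron-sulphur subunit Sdhb and the membrane anchors Sdhc and Sdhd stood at 0.22, -0.04 and 0.19 in sub-SCI (edgeR adjusted p = 0.23, 0.81 and 0.15).

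Complex III, the cytochrome bc1 complex, showed the same kind of split between its subunits. The core proteins Uqcrc1 and Uqcrc2 were lower than Intact in all 4 comparisons, and the other 7 members passed in none. Uqcrc2 measured 209, 193, 202 and 184 CPM in Intact and 98.7, 99.7 and 104 CPM in sub-SCI. Its +PBS libraries measured 104, 117 and 97.4 CPM at 1 wpt, 111 and 128 at 2 wpt, then 140, 116, 117 and 121 at 4 wpt. None of them reached the lowest Intact library. The log2 fold change of Uqcrc2 was -0.97 in sub-SCI (SE 0.09) and -0.67 in +PBS-4w (SE 0.08, edgeR adjusted p = 1.2e-08 and 9.8e-07), and sub-SCI gave it the smallest adjusted p of all members. Uqcrc1 fell by 0.64 on the log2 scale in sub-SCI (edgeR adjusted p = 0.0017). The Rieske iron-sulphur subunit Uqcrfs1 stood at -0.16 (edgeR adjusted p = 0.37).

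**Figure D3:**
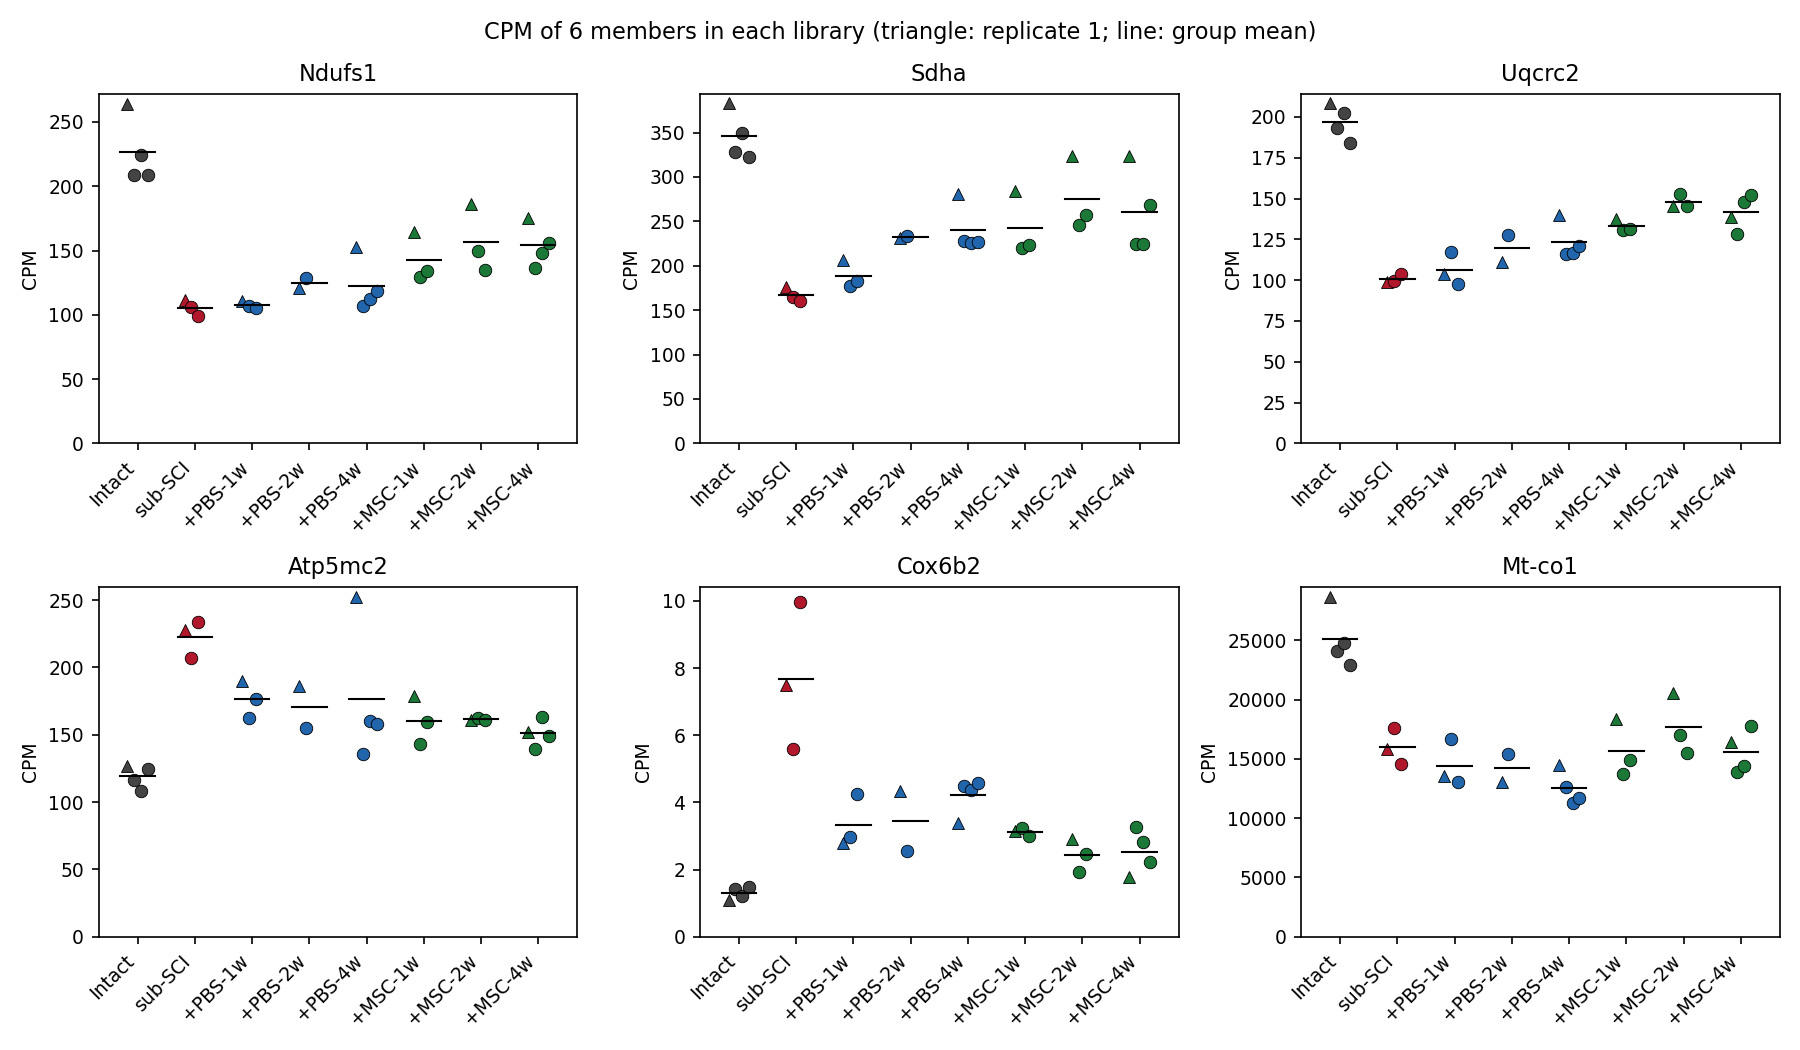
CPM of Ndufs1, Sdha, Uqcrc2, Atp5mc2, Cox6b2 and Mt-co1 in each library by group, with a line at the group mean, a triangle for replicate 1 and axes from 0. Ndufs1, Sdha and Mt-co1 lay lower, and Atp5mc2 and Cox6b2 higher, in every +PBS and sub-SCI library than in every Intact library, as did Uqcrc2 on the lower side.

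Complex IV, cytochrome c oxidase, had a median log2 fold change of 0.02 in sub-SCI, and 2 of its 16 nuclear members were higher and 1 lower. The highest fold was that of Cox6b2, the isoform of Cox6b1 known from testis, at low level. It measured 1.09, 1.42, 1.203 and 1.48 CPM in Intact and 7.50, 5.58 and 9.97 CPM in sub-SCI. In +PBS it measured 2.79, 2.98 and 4.24 CPM at 1 wpt, 4.35 and 2.56 at 2 wpt, then 3.39, 4.48, 4.38 and 4.59 at 4 wpt. Every one of these was above every Intact library. The log2 fold change of Cox6b2 was 2.56 (SE 0.25, edgeR adjusted p = 2.3e-08) in sub-SCI and 1.35, 1.404 and 1.69 at 1, 2 and 4 wpt (edgeR adjusted p = 1.2e-04, 4.8e-04 and 6e-06). The 2 gene IDs named Cox6b1 stood at 0.16 and 0.07 in sub-SCI (edgeR adjusted p = 0.57 and 0.83).

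The remaining isoform pairs of complex IV gave little. Cox4i1, the ubiquitous form, measured 439, 434, 419 and 417 CPM in Intact and 385, 411 and 380 CPM in sub-SCI (log2 fold change -0.12, edgeR adjusted p = 0.63). In +PBS-4w it measured 665, 267, 299 and 304 CPM, so that 1 library lay above and 3 below all Intact libraries. Its lung-type, oxygen-sensitive isoform Cox4i2 measured 2.56, 3.12, 2.87 and 2.13 CPM in Intact, 3.14, 3.23 and 4.34 CPM in sub-SCI and 2.53, 1.87, 1.12 and 1.06 CPM in +PBS-4w. It was lower in +PBS-4w only among the 4 comparisons (-0.69, edgeR adjusted p = 0.034), where replicate 1 overlapped Intact. The muscle forms Cox6a2 and Cox8b rested on Intact replicate 4, which had 382 CPM of summed skeletal muscle markers against 15.2 to 21.8 in the other Intact libraries. Cox8b measured 0.164, 0.137, 0.139 and 2.05 CPM in Intact and 0.0291, 0.0362 and 0.203 CPM in sub-SCI. It was called lower (-2.80, edgeR adjusted p = 0.026), and without Intact replicate 4 the value was -0.70 (edgeR adjusted p = 0.566). Cox7a2l, which takes part in joining complexes III and IV, was higher in sub-SCI (0.36, edgeR adjusted p = 0.028). Cox5a and Cox7b did not pass in sub-SCI (-0.20 and -0.21, edgeR adjusted p = 0.41 and 0.35) but were lower in +PBS-1w (-0.69 and -0.65, edgeR adjusted p = 0.0082 and 0.0069).

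In ATP synthase, 3 of 17 members were lower and 2 higher in sub-SCI. The catalytic-head subunit Atp5f1a was lower in all 4 comparisons (-0.43, -0.53, -0.48 and -0.38, edgeR adjusted p between 0.0038 and 0.029). Atp5f1b measured 1353, 1155, 1158 and 1094 CPM in Intact and 918, 866 and 908 CPM in sub-SCI. These did not overlap, but the call missed the threshold (-0.41, edgeR adjusted p = 0.061). In +PBS-4w Atp5f1b measured 1401, 769, 786 and 788 CPM. Atp5md, a small membrane subunit, was lower in sub-SCI (-0.95, edgeR adjusted p = 0.048), and Atp5f1e, the epsilon subunit, was higher (0.73, edgeR adjusted p = 0.011).

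The c-ring is encoded by several genes for the same mature subunit, and its members did not move together. Atp5mc2 measured 127, 117, 108 and 125 CPM in Intact and 228, 207 and 234 CPM in sub-SCI. In +PBS it measured 190, 162 and 176 CPM at 1 wpt, 186 and 155 at 2 wpt, then 252, 136, 160 and 158 at 4 wpt. All were above the highest Intact library. The log2 fold changes of Atp5mc2 were 0.90, 0.57, 0.52 and 0.57 (edgeR adjusted p = 1.5e-05, 0.0025, 0.016 and 0.0014). Atp5mc3 was lower in sub-SCI, +PBS-1w and +PBS-4w (-0.57, -0.84 and -0.56, edgeR adjusted p = 0.047, 0.0062 and 0.038), and Atp5mc1 passed in none (-0.26 in sub-SCI, edgeR adjusted p = 0.41). The inhibitor Atp5if1 measured 129, 90.7, 86.9 and 93.3 CPM in Intact and 137, 122 and 129 CPM in sub-SCI, which overlapped (0.37, edgeR adjusted p = 0.28).

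In the +PBS groups the lower nuclear members numbered 23, 8 and 14 at 1, 2 and 4 wpt, and the higher ones 2 each time, Atp5mc2 and Cox6b2. Of all genes, 26.4%, 17% and 23.9% were lower and 26.7%, 19.7% and 28.6% higher in those weeks. The nuclear medians were -0.38, -0.34 and -0.21 (all genes, -0.01, 0.00 and 0.05). Of the Mt- members 11, 7 and 12 were lower, with medians of -0.86, -0.67 and -1.004. The study's threshold was met by 6, 1 and 7 members (26%, 14.5% and 24% of all genes), at 4 wpt by Cox6b2 and by Mt-atp8, Mt-nd2, Mt-nd4, Mt-nd5, Mt-nd1 and Mt-co1. The 4 comparisons share the Intact libraries. In all 4, 7 nuclear members were lower (Ndufs1, Ndufs4, Ndufa10l1, Sdha, Uqcrc1, Uqcrc2 and Atp5f1a) and 52 were called in none. Also lower in all 4 were 7 Mt- members (Mt-co1, Mt-co2, Mt-co3, Mt-cyb, Mt-atp6, Mt-nd2 and Mt-nd6), and Mt-nd3 was called in none. The share of all genes lower in all 4 comparisons, or called in none, was not counted.

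These counts depended on single libraries, the nuclear ones most. Without +PBS-4w replicate 1 the lower nuclear members were 36, 26 and 50 at 1, 2 and 4 wpt (backgrounds 27%, 20.4% and 25.8%), the higher ones 5, 2 and 2 (32.3%, 24.4% and 33%), and the lower Mt- members 12, 8 and 13. Every call made with the library was among them. The +PBS-4w nuclear median was then -0.51 and the Mt- median -0.90. Then 7 of 7 complex I core subunits and 20 of 30 accessory ones were lower in +PBS-4w, against 2 and 3 with the library. At 2 wpt, leaving out +PBS-2w replicate 1 left 2 lower nuclear, 0 higher nuclear and 0 Mt- members, and 0 past the study's threshold, and leaving out Intact replicate 1 left 4 Mt- members. At 4 wpt the lower nuclear members were 7 without Intact replicate 1, and 8 without Intact replicate 2 or without +PBS-4w replicate 2, 3 or 4, and the higher ones were 4 without +PBS-4w replicate 2. The members past the study's threshold were 3 at 1 wpt without Intact replicate 1 or 2 or +PBS-2w replicate 1, and at 4 wpt 3 without Intact replicate 1 and 4 without Intact replicate 2 or +PBS-4w replicate 3.

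All 13 Mt- members had a negative log2 fold change against Intact in each of the 4 comparisons. Mt-co1, the catalytic core of complex IV, measured 28621, 24065, 24753 and 22944 CPM in Intact and 15854, 17566 and 14554 CPM in sub-SCI. It measured 13560, 16698 and 13067 CPM in +PBS-1w, 13013 and 15431 in +PBS-2w, and 14463, 12645, 11251 and 11691 in +PBS-4w. None overlapped Intact, and in this gene +PBS-4w replicate 1 lay near the rest of its group. The log2 fold change was -0.65 in sub-SCI and -1.004 in +PBS-4w (SE 0.16 and 0.14, edgeR adjusted p = 0.001 and 6.4e-06). The +PBS-4w and sub-SCI values of Mt-co1 were not tested against each other.

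Of the other mitochondrially encoded subunits, those of complex I come first. Mt-nd2 measured 6546, 7032, 5435 and 4754 CPM in Intact, 2607, 3797 and 2656 CPM in sub-SCI and 2134, 3009, 2143 and 2647 CPM in +PBS-4w, with log2 fold changes of -0.98 and -1.26 (edgeR adjusted p = 3.6e-04 and 1.4e-05). In sub-SCI, Mt-nd1, Mt-nd4 and Mt-nd5 stood at -0.78, -0.90 and -1.04 and Mt-co2 and Mt-co3 at -0.59 and -0.56, all called (edgeR adjusted p between 0.0015 and 0.014). Mt-nd6, the gene on the light strand, was at -0.90 (edgeR adjusted p = 4.9e-05). The differences between these genes were not tested. Cytochrome b (Mt-cyb) and the ATP synthase subunit Mt-atp6 were at -0.64 and -0.52 (edgeR adjusted p = 0.0016 and 0.018). Mt-atp8, the small partner of Mt-atp6, measured 93.5, 100.1, 77.3 and 67.3 CPM in Intact and 38.6, 62.5 and 27.8 CPM in sub-SCI (-0.98, edgeR adjusted p = 0.0092).

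In a few Mt- genes 1 library stood apart. Mt-nd5 measured 3343, 4175, 3158 and 2791 CPM in Intact, 1331, 1926 and 1658 CPM in sub-SCI and 375, 2364, 1618 and 1719.6 CPM in +PBS-4w. There +PBS-4w replicate 1 lay far below the rest of its group, as it did for Mt-nd4l (55.5 CPM against 394 to 674). Without it the log2 fold changes in +PBS-4w were -0.78 for Mt-nd5 and -0.74 for Mt-nd4l (edgeR adjusted p = 0.0011 and 0.013), against -1.15 and -1.16 with it (edgeR adjusted p = 0.0047 and 0.022). The Mt- share of counts entered the library totals. With library sizes and scaling taken from the nuclear genes alone, the medians of the Mt- members were -0.76, -0.84, -0.66 and -1.02 in the 4 comparisons with Intact, and 11, 11, 7 and 12 of them were lower.

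The difference between the mean log2 CPM of the Mt- and of the nuclear members was 5.29 in Intact (5.06 to 5.49 over libraries), 4.67 in sub-SCI (4.52 to 4.94), 4.74 in +PBS-1w (4.49 to 5.07), 4.91 in +PBS-2w (4.68 to 5.14) and 4.51 in +PBS-4w (3.61 to 5.12). The +PBS-4w mean rested on replicate 1 at 3.61, and the other +PBS-4w libraries stood at 5.12, 4.61 and 4.68. The sub-SCI libraries did not overlap Intact, whereas each +PBS group did. In +MSC the group means were 4.85, 4.96 and 4.95 at 1, 2 and 4 wpt.

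Across all 8 groups, 13 of 83 nuclear and 10 of 13 Mt- members differed (edgeR's quasi-likelihood F test, an adjusted p under 0.05, reached by 56.3% of all genes). Without +PBS-4w replicate 1 these were 46 and 12, and without Intact replicate 2 the nuclear count was 8.

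Transcript length went with the change in the nuclear members. In sub-SCI, 12 of 25 members of 1000 bases or more were lower (median log2 fold change -0.42), 4 of 21 members of 600 to under 1000 bases (median -0.20) and 2 of 37 shorter members (median -0.06). Without +PBS-4w replicate 1 the counts were 13, 6 and 2 and the medians -0.36, -0.14 and 0.00. Of all genes tested in the same 3 bands, 4904 of 14937, 326 of 1441 and 330 of 1612 were lower. Their medians were -0.03, 0.11 and 0.06, and the difference was not tested. Across the 83 genes, which are not independent replicates, length and log2 fold change had a Pearson r of -0.18 and a Spearman rho of -0.32, with all points from the same 7 libraries. Longer genes gather more reads at the same molar level and are called more easily, and the part of read depth was not tested. In +PBS-4w replicate 1 the deviation from the group mean also went with length (r = -0.31, rho = -0.37, 83 genes), with short members further above the mean.

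**Figure D4:**
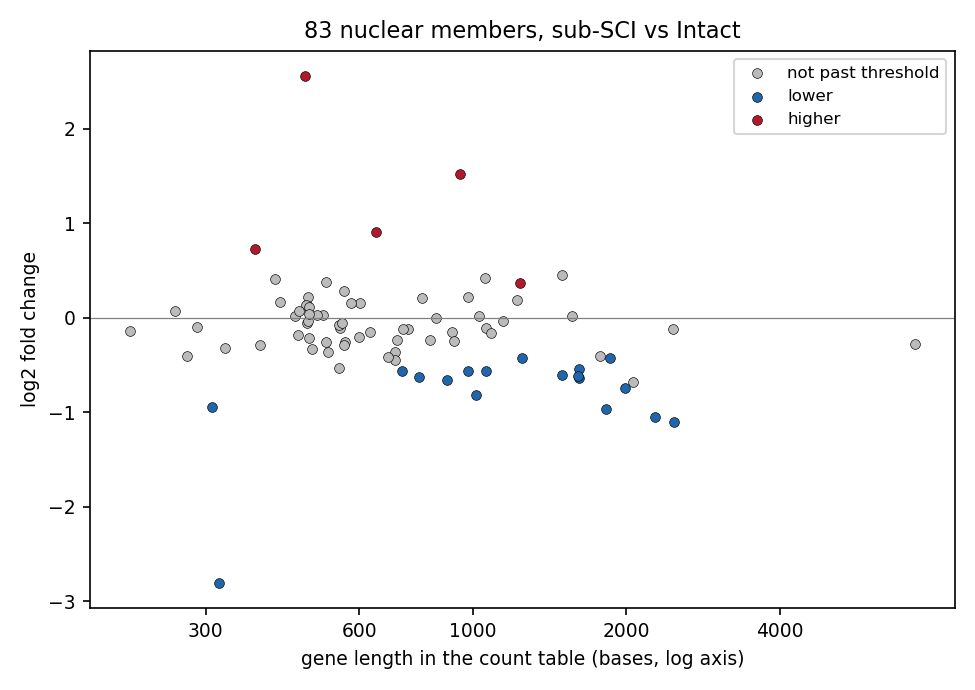
Log2 fold change in sub-SCI against Intact of the 83 nuclear members against the gene length in the count table (log axis), with blue points lower and red points higher at an adjusted p under 0.05. Of the 18 lower members, 12 were 1000 bases or longer, as were 4904 of the 5560 lower ones among all genes tested.

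The motif matches were spread over the calls. Of the 15 members lower in sub-SCI with a matched promoter, 4 held the ETS letters and 0 held those of NRF1 or YY1. Of the 5 higher ones 1, Atp5mc2, held the NRF1 letters and 0 those of ETS. Of the 52 not called, 15 held ETS, 3 NRF1 and 2 YY1 letters.

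Against +PBS in the same week, no member passed the threshold in +MSC with all libraries in the model. The counts of members at an unadjusted p under 0.05 were 6, 2 and 8 of 96 at 1, 2 and 4 wpt (edgeR). Chance alone gives a rate of about 0.05 at that threshold, and the share of all genes there is not given here. DESeq2 on all libraries called 1 nuclear member higher at 1 wpt, 0 at 2 wpt, and 1 nuclear member lower and 2 Mt- members higher at 4 wpt. Of all genes, DESeq2 called 2.16% higher at 1 wpt, and 6.28% higher and 3.73% lower at 4 wpt. Few genes of any kind passed in edgeR: 0.0389% higher and 0.0611% lower at 1 wpt, 0% at 2 wpt, and 3.07% higher and 0.928% lower at 4 wpt. The median log2 fold change of the Mt- members was 0.24, 0.22 and 0.36 (all genes 0.00, 0.00 and -0.04), and 13, 12 and 13 of the 13 were positive. The Mt- median at 2 wpt was 0.036 without +MSC-2w replicate 1, that at 1 wpt 0.12 without +MSC-1w replicate 1, and without all replicate 1 libraries the 3 weeks gave 0.037, -0.14 and 0.37. The median of the nuclear members was 0.16, 0.18 and -0.06. It was 0.018 at 1 wpt without +MSC-1w replicate 1, -0.013 at 2 wpt without +MSC-2w replicate 1 and 0.26 at 4 wpt without +PBS-4w replicate 1. Whether the effect differed between weeks was tested by an interaction in edgeR, which 0 members and 0% of all genes passed. The 2-week groups held only 2 +PBS and 3 +MSC libraries.

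Averaged over the 3 weeks, 5 nuclear members were higher and 1 lower in +MSC than in +PBS, and 4 Mt- members were higher (12.3% of all genes higher and 10.9% lower). The higher nuclear ones were Ndufs1 (log2 fold change 0.36, SE 0.08, edgeR adjusted p = 0.0049), Uqcrc2 (0.28, SE 0.06, edgeR adjusted p = 0.0018), Sdha (0.24, edgeR adjusted p = 0.039), Ndufa10l1 (0.26, edgeR adjusted p = 0.036) and Ndufs4 (0.19, edgeR adjusted p = 0.047), all of which were lower than Intact in sub-SCI and all +PBS groups. The +PBS libraries take part in both comparisons. Cox6b2, higher after injury, was the lower one (-0.44, edgeR adjusted p = 0.039). The Mt- members were Mt-atp8 (0.55, edgeR adjusted p = 0.039), Mt-nd4 (0.44, edgeR adjusted p = 0.035), Mt-nd2 (0.39, edgeR adjusted p = 0.03) and Mt-nd1 (0.33, edgeR adjusted p = 0.048).

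In single libraries the +MSC and +PBS values often touched. Ndufs1 measured 165, 130 and 134 CPM in +MSC-1w, 186, 149 and 135 in +MSC-2w, and 176, 136, 148 and 156 in +MSC-4w. At 1 and 2 wpt every +MSC library was above every +PBS library, and at 4 wpt only +PBS-4w replicate 1 (153 CPM) lay within the +MSC range. Uqcrc2 measured 138, 131 and 132 CPM in +MSC-1w, 145, 153 and 145 in +MSC-2w, and 139, 128, 148 and 152 in +MSC-4w, with the same overlap by that library alone (140 CPM). Every +MSC library was below every Intact library in both genes. The neuron marker sum was 4596 to 9231 CPM in +MSC-1w against 1497 to 3449 in +PBS-1w, 7553 to 11142 in +MSC-2w against 3342 to 6430 in +PBS-2w, and over the mean of the weeks 4 of 8 microglia and macrophage and 6 of 6 fibroblast markers were lower in +MSC.

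Sdha in +MSC measured 285, 220 and 223 CPM at 1 wpt, 324, 246 and 257 at 2 wpt, then 324, 224, 225 and 268 at 4 wpt. Replicate 1 of the last 2 groups reached the lowest Intact level (323 CPM). Mt-nd2 measured 3818, 2487 and 3107 CPM in +MSC-1w, 5337, 3594 and 3445 in +MSC-2w, and 3829, 3518, 2956 and 4171 in +MSC-4w, which overlapped +PBS in all 3 weeks. Mt-atp8 measured 63.7, 54.9 and 52.2 CPM in +MSC-1w, 97.5, 52.5 and 40.8 in +MSC-2w, and 76.1, 62.6, 44.2 and 65.2 in +MSC-4w. At 4 wpt all +MSC libraries were above all +PBS libraries (25.2 to 43.2 CPM), though the call missed the threshold (0.91, SE 0.28, edgeR adjusted p = 0.07). Cox6b2 measured 3.16, 3.24 and 2.99 CPM in +MSC-1w, 2.92, 1.93 and 2.47 in +MSC-2w, and 1.79, 3.26, 2.83 and 2.24 in +MSC-4w. All were above Intact, and those at 4 wpt were all below the +PBS-4w libraries.

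**Figure D5:**
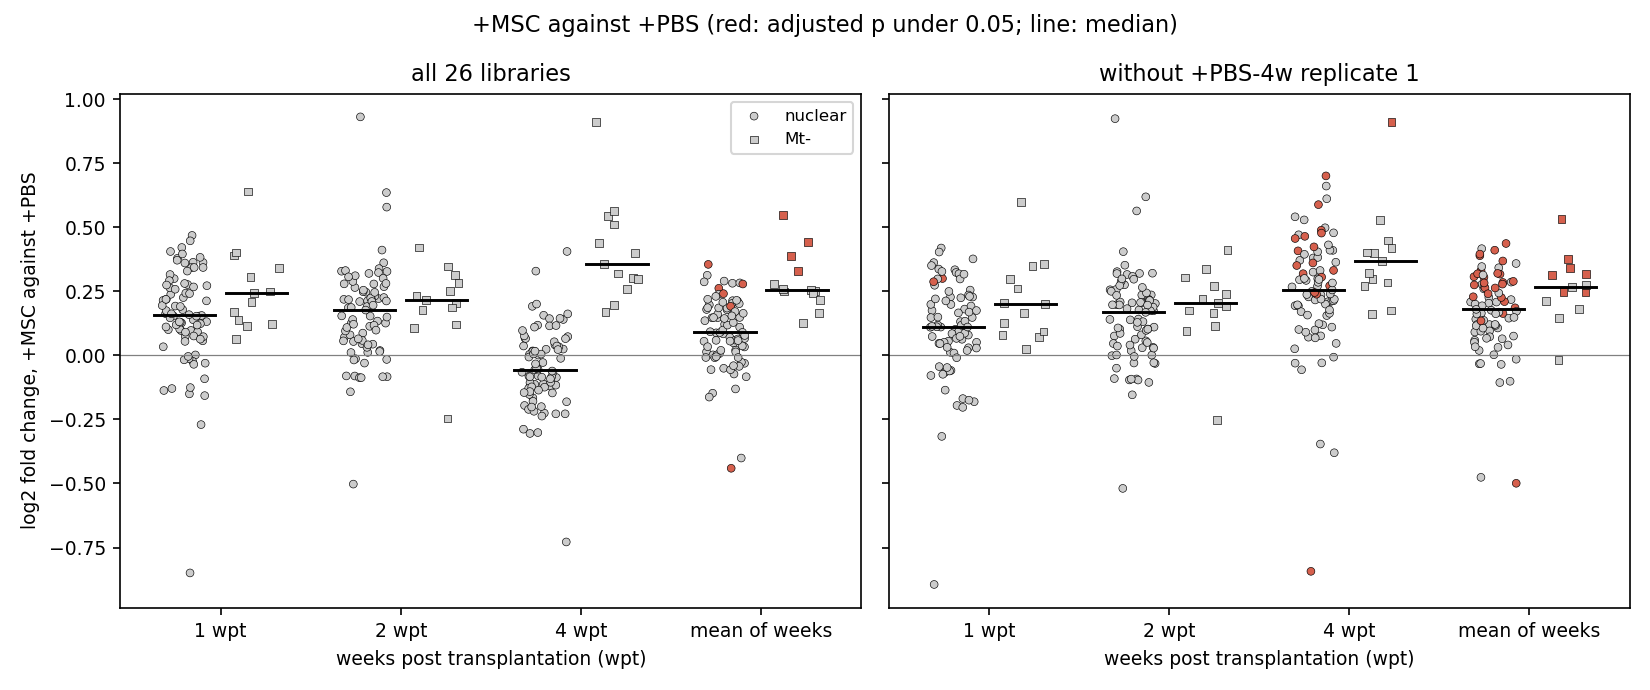
Log2 fold change of each member in +MSC against +PBS at 1, 2 and 4 wpt and over the mean of the weeks, with all 26 libraries (left) and without +PBS-4w replicate 1 (right), circles for nuclear and squares for Mt- members, red where the adjusted p is under 0.05 and a line at the median. The nuclear median at 4 wpt was -0.06 with the library and 0.26 without it, and the Mt- median was 0.36 and 0.37.

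At 4 wpt the nuclear result turned on 1 library. Without +PBS-4w replicate 1, 16 nuclear members were higher and 1 lower in +MSC-4w, and 1 Mt- member was higher (background 9.63% higher and 7.46% lower). Of the 12 neuron markers, 12 were then higher in +MSC-4w, against 2 with the library. The members included the complex I subunits Ndufs1 (0.42, edgeR adjusted p = 0.013), Ndufa8 (0.59) and Ndufa12 (0.70), the complex III core protein Uqcrc1 (0.35, edgeR adjusted p = 0.0056), and Cox5a (0.49, edgeR adjusted p = 0.0035), Cox7b (0.46, edgeR adjusted p = 0.0055) and Cox4i1 (0.32) of complex IV. The Mt- member was Mt-atp8 (0.91), and the lower one was Cox6b2 (-0.84, edgeR adjusted p = 0.022). None of the ATP synthase members was among the higher ones. At 1 wpt Ndufa10l1 and Uqcrc2 then passed (0.30 and 0.29, edgeR adjusted p = 0.039 and 0.047, background 1.85% higher), named because no other member did. With that library in the model and 1 other left out, 1 Mt- member passed at 4 wpt without +MSC-2w replicate 1 and 1 lower nuclear member without +MSC-4w replicate 2.

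Over the mean of the weeks the counts without that library were 25 nuclear members higher, 1 lower and 7 Mt- members higher (16.5% of all genes higher and 18.1% lower), with all calls of the full set among them. The medians were then 0.18 and 0.27. The full-set count of 5 higher nuclear members fell to 2 without any one of Intact replicate 1 or 2, +PBS-1w replicate 3, +PBS-2w replicate 1, +PBS-4w replicate 2, 3 or 4, +MSC-1w replicate 1, +MSC-2w replicate 1, or +MSC-4w replicate 1 or 4, and to 3 without +PBS-2w replicate 2, +MSC-1w replicate 3 or +MSC-2w replicate 2. The count of 4 Mt- members fell to 0 without +PBS-1w replicate 3, +PBS-2w replicate 1, +MSC-2w replicate 1 or +MSC-4w replicate 4, to 1 without +PBS-1w replicate 1, +PBS-4w replicate 3 or +MSC-1w replicate 1, and to 2 without +PBS-4w replicate 4, +MSC-1w replicate 3 or +MSC-4w replicate 1. The call of Cox6b2 was lost without +PBS-1w replicate 3, +PBS-2w replicate 1, +PBS-4w replicate 2, 3 or 4, any +MSC-1w library, +MSC-2w replicate 2 or 3, or +MSC-4w replicate 1 or 4. Ndufs1 and Uqcrc2 kept their call under all 36 alternatives. Without all 8 replicate 1 libraries, 10 nuclear members were higher, 0 lower and 0 Mt- members higher (8.16% of all genes higher and 8.22% lower).

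The pathways around the respiratory chain were read from lists, whose counts are to be set beside 30.9% of all genes lower and 30.5% higher in sub-SCI and 12.3% higher and 10.9% lower in +MSC over the mean of the weeks. The TCA cycle, which supplies its NADH and succinate, was mostly lower: of 13 genes tested, 10 were lower and 0 higher in sub-SCI, 12 lower in +PBS-1w, 11 in +PBS-2w and 12 in +PBS-4w (10, 12, 12 and 12 without +PBS-4w replicate 1). Cs (citrate synthase) stood at -0.72, Ogdhl at -2.02 and Sucla2 at -1.28 in sub-SCI (edgeR adjusted p = 2.5e-07, 1.8e-06 and 1.4e-05). Over the mean of the weeks 7 of the 13 were higher in +MSC than in +PBS (10 without +PBS-4w replicate 1). Of 42 assembly factors, 21 were lower and 3 higher in sub-SCI (median -0.39, and 22 and 3 without +PBS-4w replicate 1), and 7 were higher and 1 lower in +MSC over the weeks (13 and 3 without +PBS-4w replicate 1). Among them Atpaf1, which assembles the ATP synthase head, stood at -1.45, Lyrm7, which inserts the Rieske protein, at -1.40, Cox11, a copper chaperone of complex IV, at -1.22 and Ttc19 at -1.06 (edgeR adjusted p between 4.1e-07 and 1.2e-05).

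Of the genes that express mitochondrial DNA, 6 of 18 were higher and 5 lower in sub-SCI (median 0.14), close to the shares of all genes. Lrpprc, which stabilises mitochondrial mRNAs, was lower (-0.90, edgeR adjusted p = 5.5e-07) and was higher again in +MSC over the weeks (0.31, edgeR adjusted p = 0.0034). Ssbp1 (0.81), Mterf1 (1.02) and Polg2 (0.75), which act in the replication or transcription of mitochondrial DNA, were higher (edgeR adjusted p = 8.8e-05, 9.8e-05 and 1.0e-04). Of 11 biogenesis regulators, 4 were higher and 3 lower in sub-SCI, and those lower were the coactivator Ppargc1a (-3.07) and its nuclear receptor partners Esrrb (-3.74) and Esrrg (-3.68), with edgeR adjusted p between 2.9e-07 and 5.5e-07. Gabpa, the GABP DNA-binding subunit, was higher (0.87, edgeR adjusted p = 2.2e-04). The same 3 that were lower were higher in +MSC over the weeks (0.87, 1.09 and 1.14, edgeR adjusted p = 0.0052, 0.0040 and 0.00345).

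Of the glycolysis and lactate genes, 7 of 22 were higher and 7 lower in sub-SCI, close to the shares of all genes. Hk3 (6.78), Hk2 (2.54) and Ldha (2.15) were higher, and Hk1, the brain hexokinase that docks on mitochondria, was lower (-1.18, edgeR adjusted p = 1.2e-08). Of 11 import and porin genes, 5 were lower and 0 higher, among them Tomm70 (-1.21), Vdac1 (-0.71), Hspa9 (-0.60) and Tomm40 (-0.29). Of 8 electron and adenine nucleotide carriers, 3 were higher and 2 lower. The ADP/ATP carrier Slc25a4 was lower (-0.80, edgeR adjusted p = 0.0021), and its paralogue Slc25a5 (0.38, edgeR adjusted p = 0.0039) and Etfb (0.82, edgeR adjusted p = 0.0034) were higher. Slc25a31 was also lower (-4.24, edgeR adjusted p = 0.012). Over the mean of the weeks 1 import gene, 3 glycolysis and lactate genes and 0 carriers were higher in +MSC, and without +PBS-4w replicate 1 these were 5, 9 and 3. Members of these lists were not chosen independently of earlier results.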

How the data were processed

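Gene counts of 26 RNA sequencing libraries were used, in whole numbers of read pairs per gene as the authors deposited them with a gene length column. Per the study's methods and the submitters' processing notes, poly(A) libraries were trimmed with Trim Galore 0.5.0, mapped with HISAT2 2.1.0 (reads that mapped to human GRCh38 removed, the rest mapped to rat Rnor6), kept as proper pairs with SAMtools 1.9 and counted with featureCounts 1.6.4. The annotation release and strand setting are not given in the sources used here. The table of the whole series was used.

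From these counts, edgeR 4.0.16 (R 4.3.3, limma 3.58.1) was run with TMM scaling and filterByExpr in 1 quasi-likelihood model of all 8 groups, with Benjamini-Hochberg adjustment over 17990 genes and calls at an adjusted p under 0.05. CPM values use TMM library sizes, log2 CPM a prior count of 2, and RPKM the deposited lengths. Depth was 19496602 to 43468509 counts per library. The study's methods speak of biological replicates in each condition, while the labels do not say how many rats made up a library. The p-values measure the spread between libraries. The model was tested on simulated counts. Alternatives were DESeq2 1.42.0, other scalings and filters, 2-group models, replicate terms and each library left out. Named were all Mt- members, core subunits, isoform pairs, and the 3 highest and 3 lowest called members of each comparison. Of the lists of assembly factors, mitochondrial DNA expression, biogenesis regulators, TCA cycle, glycolysis and lactate, import and porin, and carriers, up to 4 genes each were named by adjusted p in sub-SCI. Some genes that these rules name are not reported here. The members, lists and tests were chosen with earlier results of these data known. Promoters came from RefSeq (GRCr8), with no coordinate taken from the counts' build.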

Additional observations from a re-analysis of the deposited data

Results flagged for a closer look

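In groups of 4 libraries, 22 measures in 3 groups gave 66 tests of whether the highest or lowest library lay far from the others, and 11 met Dixon's 95% criterion, where chance gives about 1 in 20. Of these, 8 fell on +PBS-4w replicate 1. There the nuclear members took 1.35% of counts (0.714 to 0.777% in the other +PBS-4w libraries), with a mean log2 CPM of 6.56 (5.54 to 5.63). By gene, Ndufa8 stood at 164 CPM (51.1 to 54.4), Cox4i1 at 665 (267 to 304), Atp5f1b at 1401 (769 to 788), Atp5if1 at 164 (55.7 to 71.1), Sdha at 281 (225 to 227), and Cox6b2 at 3.39, below the others (4.38 to 4.59).

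In Intact, replicate 4 stood apart in the muscle isoforms Cox6a2 (7.56 CPM against 1.96 to 2.68) and Cox8b (2.05 CPM against 0.137 to 0.164), and its skeletal muscle marker sum was 382 CPM. Intact replicate 1 stood apart in Atp5if1 (129 CPM against 86.9 to 93.3).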

How the results depend on the processing

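Of 96 called values of named genes, 54 kept their call under every alternative, with no reversal. Medians with no test did change sign: that of the nuclear members at 4 wpt of +MSC (-0.06 with all libraries, 0.26 without +PBS-4w replicate 1) and at 2 wpt (0.18, and -0.01 without +MSC-2w replicate 1), and that of the Mt- members at 2 wpt (0.22, and -0.14 without replicate 1 libraries). Counts of members moved most where the groups or the replicate 1 libraries in the model changed, and the cause was not tested. Counts are of nuclear members unless Mt- is named, for sub-SCI, +PBS-1w, +PBS-2w and +PBS-4w against Intact and for +MSC against +PBS. Percentages in brackets are the shares of all genes tested that were called in the same direction under the same setting. No such shares are given for the leave-one-out ranges, the study's threshold or the test among the groups.

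DESeq2 on all libraries gave 14 lower in +PBS-2w (19.8%) and 1 higher in +MSC-1w (2.16%). It gave 1 lower (3.73%) and 2 Mt- higher (6.28%) in +MSC-4w, and 7 Mt- higher over the mean of the weeks (13.7%). In 2-group models edgeR gave 9 higher in sub-SCI (35.2%). For +PBS it gave 4 higher (30.1%) and 38 lower (28.5%) at 1 wpt, 29 lower (24%) at 2 wpt and 4 lower (21.3%) at 4 wpt. In such models DESeq2 gave 10 higher in sub-SCI (35.3%). For +PBS it gave 4 higher (31.3%) and 40 lower (30.3%) at 1 wpt. At 2 wpt 31 nuclear and 11 Mt- members were lower (25.3%), and at 4 wpt 8 nuclear ones (25%). For +MSC it gave 1 nuclear and 1 Mt- member higher (5.26%) and 1 nuclear lower (4.5%) at 1 wpt. At 4 wpt 2 Mt- members were higher (4.11%). Total counts only gave 3 and 4 members past the study's threshold in +PBS-1w and +PBS-4w. With no filter, 2 were higher (7.13%) and 0 lower (6.3%) over the mean of the weeks.

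Over all genes tested, deviations of same-numbered libraries from their group means correlated at -0.08 to 0.25. For replicate 1 against Intact the values were 0.22, 0.24, -0.06 and 0.25 in sub-SCI, +PBS-1w, +PBS-2w and +PBS-4w. Replicate 1 also had the highest nuclear mean in all 8 groups. Whether same-numbered libraries share a batch was not tested. With the replicate block, 37, 23 and 22 were lower in +PBS-1w, +PBS-2w and +PBS-4w (27.1%, 19.1% and 25.3%). There 1 nuclear and 1 Mt- member were higher in +MSC-4w (4.04%), and 25 differed among the 8 groups. A term for replicate 1 gave 43, 25 and 27 lower (27.9%, 19.8% and 25.8%), 1 higher in +MSC-4w (4.35%), and 30 among the groups.

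Added after seeing the data, the model without replicate 1 libraries gave 13 higher in sub-SCI (32.5%). In +PBS-1w 44 were lower (26%) and 3 past the study's threshold. In +PBS-2w 1 was higher (13.1%), 16 lower (7.93%), 0 Mt- called and 0 past that threshold. In +PBS-4w 54 were lower (26.3%), and in +MSC-4w 21 were higher (7%). Over the mean of the weeks it gave 10 higher (8.16%), 0 lower (8.22%) and 0 Mt-. Among the groups 57 differed. The Mt- medians were -0.40 in +PBS-2w, 0.037 in +MSC-1w and -0.14 in +MSC-2w. A term for replicate 1 without +PBS-4w replicate 1 gave 13 higher in sub-SCI (36.2%). For +PBS it gave 5 higher (33.4%) and 48 lower (27.9%) at 1 wpt, 41 lower (22%) at 2 wpt and 54 lower (26%) at 4 wpt. For +MSC it gave 4 higher (3.96%) at 1 wpt, and 22 higher (9.12%) and 1 lower (7.12%) at 4 wpt. Over the mean of the weeks 37 nuclear and 8 Mt- members were higher (17.3%), and 61 differed among the groups.

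Leaving out each of 26 libraries in turn, the higher, lower, Mt- and study-threshold counts ran from 4 to 9, 9 to 21, 9 to 12 and 2 to 7 in sub-SCI, from 2 to 5, 16 to 36, 9 to 12 and 3 to 7 in +PBS-1w, from 0 to 3, 2 to 26, 0 to 8 and 0 to 1 in +PBS-2w, and from 2 to 4, 7 to 50, 11 to 13 and 3 to 9 in +PBS-4w. For +MSC, higher counts ran from 0 to 2 at 1 wpt, 0 to 16 at 4 wpt (0 to 1 lower, 0 to 1 Mt-) and 2 to 25 over the weeks (0 to 1 lower, 0 to 7 Mt-). Among the groups 8 to 46 nuclear and 9 to 12 Mt- members differed. Nuclear medians ran from -0.19 to -0.03, -0.45 to -0.24, -0.37 to -0.16 and -0.51 to -0.06 against Intact, and 0.02 to 0.27, -0.01 to 0.25, -0.18 to 0.26 and 0.05 to 0.18 for +MSC. Mt- medians ran from -0.91 to -0.62, -0.95 to -0.73, -0.81 to -0.47 and -1.05 to -0.87, and 0.12 to 0.39, 0.04 to 0.34, 0.27 to 0.46 and 0.19 to 0.30. Depth was low for Cox8b (0 to 54 counts per library).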
